A study of Homo sapiens with 3 samples.

Results

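The microRNAs hsa-miR-183-5p, hsa-miR-96-5p and hsa-miR-182-5p (below without the species prefix) are the main arms of a cluster of microRNA hairpins that is made as one transcript. They were chosen by name, and each had 1 probe on the array, so the cluster gave 3 of the 2019 human microRNA probes. The cells were MCF12A, an immortalized human mammary epithelial line that does not form tumours, grown as a monolayer in medium with horse serum and growth factors. One array held RNA of cells kept with ethanol for 4 weeks, one held RNA of cells kept for 4 weeks with acetaldehyde, to which cells oxidize ethanol, and one held RNA of unexposed control cells. The labels give the doses as 2.5 mM ethanol and 1 mM acetaldehyde in one field and as 2.5% and 1% in another. With 1 array per group no p-value and no SD between cultures could be computed. Every ± below is the SD over the 4 spot positions of a probe (n = 4 spots, 1 array per group), which covers printing and reading of spots only.

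The primary transcript is cut by Drosha into separate hairpins, each of which gives a 5′ arm and a 3′ arm after Dicer cleavage, and mature levels of one transcript can therefore differ. The cluster is best known from sensory organs, where mutations in the seed of miR-96 cause hearing loss, and it is also raised in many carcinomas. In breast cancer cells miR-96 and miR-182 have been described as repressors of the transcription factor FOXO1, and miR-182 also as a repressor of BRCA1.

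The mature sequences are shown because the members are read through separate probes and resemble each other, with the seed (bases 2 to 8) in capitals. They come from RefSeq, build GRCh38.p14, and were identical to the target sequences in the array files.
miR-183-5p: uAUGGCACugguagaauucacu
miR-96-5p: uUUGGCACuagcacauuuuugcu
miR-182-5p: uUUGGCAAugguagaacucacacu
miR-1271-5p: cUUGGCACcuagcaagcacuca

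All 3 members lie on the minus strand of chromosome 7, in the order of transcription at chr7:129774967-129774988 for miR-183-5p, chr7:129774739-129774761 for miR-96-5p and chr7:129770447-129770470 for miR-182-5p. The annotation places each in its own microRNA gene, MIR183, MIR96 and MIR182. The MIR183 and MIR96 hairpins are 135 bases apart and the MIR96 and MIR182 hairpins 4199 bases, and no other annotated gene overlaps the 4632 bases from the first to the last. The MIR96 and MIR182 hairpins are shown because they gave a measurable value for the 5′ arm only, which is in capitals.
MIR96: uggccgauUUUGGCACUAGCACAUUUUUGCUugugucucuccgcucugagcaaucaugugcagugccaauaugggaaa
MIR182: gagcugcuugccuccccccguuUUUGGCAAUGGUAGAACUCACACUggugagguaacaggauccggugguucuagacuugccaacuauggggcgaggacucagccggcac

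The 3 seeds differ from one another. miR-96-5p shares 6 of 7 seed bases with miR-182-5p and 6 of 7 with miR-183-5p, while miR-182-5p and miR-183-5p share 5 of 7. The only other target on the array with the seed of a member was miR-1271-5p, which has that of miR-96-5p. Over their whole length miR-182-5p and miR-183-5p were the closest pair, 5 edits apart, and each was the nearest target of the other among all probes. miR-96-5p was 8 edits from miR-183-5p and 10 from miR-182-5p, and had no other target within 5 edits. How far the probes read each other's targets was not tested.

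The arrays differed in background and sensitivity. The detection level was set 3 SDs above the median of 1368 empty spots, and a probe had to pass it with its mean and with 50% or more of its spots. The ethanol array had a level of 243 and 347 detected microRNAs, the acetaldehyde array 98.8 and 1430, and the control array 146 and 775. All 7 epithelial marker microRNAs were detected on each array, and the liver marker miR-122-5p on none. Of 4 blood markers, 0 were detected with ethanol, 1 with acetaldehyde and 0 in control. Of 4 mesenchymal markers 1 was detected with ethanol, 3 with acetaldehyde and 1 in control. Of 3 muscle markers 1 was detected with ethanol, 2 with acetaldehyde and 1 in control, and miR-206 was detected on all 3 arrays. Of 2 neuronal markers 0 were detected with ethanol, 1 with acetaldehyde and 0 in control. Before normalization the median of 43 spike probes differed by 1.09 (log2) between the acetaldehyde and the control array, and that of 6 probes for 5S ribosomal RNA by -0.17. Levels below are therefore relative to the other microRNA probes. The labels do not say what the spike probes measure or how much spike was added, so values scaled on them are given as one possible scale. With the arrays scaled on the spikes, 639 of 774 microRNAs were at least 1.5-fold below control with acetaldehyde and 0 were 1.5-fold above.

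With acetaldehyde the 3 members did not keep together. miR-183-5p was 1.77-fold lower than on the control array, miR-96-5p was 1.74-fold higher relative to the other microRNA probes (lower with scaling on the spikes), and miR-182-5p lay between, within 1.5-fold of control. With ethanol none of the 3 reached 1.5-fold, and miR-96-5p and miR-182-5p both read below control, by amounts that depended on the scaling.

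**Figure D1:**
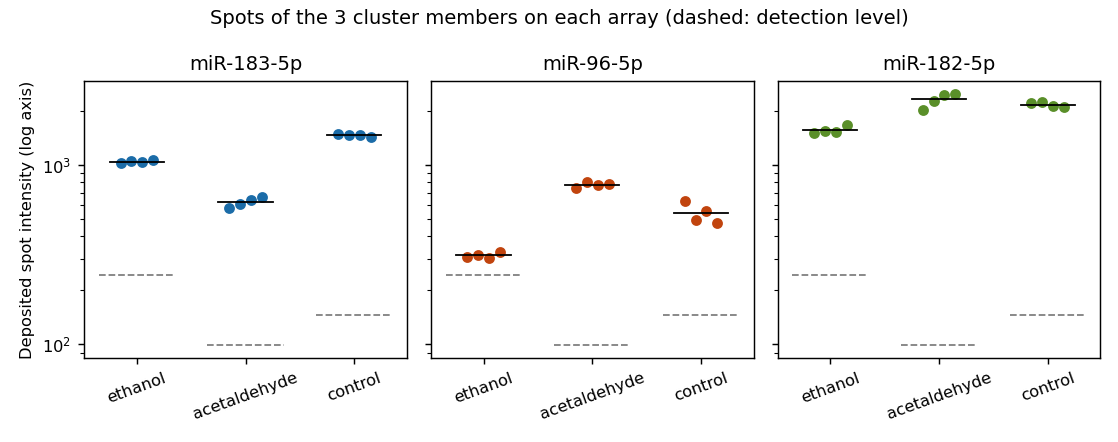
Deposited spot intensities (log axis, no normalization) of each member on the ethanol, acetaldehyde and control arrays. Points are the 4 spots, the solid line is their mean and the dashed line the detection level of that array; miR-183-5p spots are lowest with acetaldehyde (577 to 665) and miR-96-5p spots are highest there (746 to 797).

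miR-183-5p, the first hairpin of the transcript, had deposited spot intensities of 577, 607, 640.0 and 665 on the acetaldehyde array. Its spots read 1016, 1043, 1032 and 1068 on the ethanol array. On the control array they read 1486, 1471, 1464 and 1419.8. No spot of one array reached the range of another, with acetaldehyde lowest, ethanol next and control highest. Such separation was common among microRNAs detected on both arrays. Ethanol spots lay all below the control spots for 59.7%. Acetaldehyde spots lay all below the control spots for 32.9% and all above them for 24.3%. Against ethanol, acetaldehyde spots lay all below for 26.5% and all above for 35.7%. Among brighter microRNAs, with a normalized intensity of 500 or more on either array, ethanol spots lay all below the control spots for 61.0%. Acetaldehyde spots of such microRNAs lay all below the control spots for 54.5% and all above them for 20.7%. Against ethanol these shares were 33.8% and 39.2%. Both steps against control thus had the direction seen for most brighter microRNAs, and the step against ethanol did not.

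miR-96-5p, the middle hairpin, had spot intensities of 746, 797, 769 and 785 on the acetaldehyde array. The ethanol array gave 305, 313, 304 and 327, not far above the detection level of 243. The control array gave 625, 495, 550.1 and 474, the widest scatter of the 3 arrays for this probe. Here too the ranges did not overlap, but the order was different, with acetaldehyde highest and ethanol lowest. Acetaldehyde spots lay entirely above the control spots for 24.3% of the microRNAs detected on both, and above the ethanol spots for 35.7%.

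miR-182-5p, the last hairpin, had spot intensities of 2025, 2261, 2451 and 2485 on the acetaldehyde array. The ethanol array gave 1498, 1548, 1516 and 1654. The control array gave 2201, 2226, 2109.9 and 2103, inside the range with acetaldehyde. Acetaldehyde and control thus overlapped, and the ethanol spots lay below both. Ethanol spots lay entirely below the control spots for 59.7% of the 347 microRNAs detected on both, and below the acetaldehyde spots for 35.7%.

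After background correction and quantile normalization the intensity of miR-183-5p was 672 with acetaldehyde and 1189 in control, a log2 difference of -0.82 ± 0.11. The difference was below 0 at 4 of 4 spot positions, as for 37.5% of the 774 microRNAs detected on both arrays. miR-96-5p had 799.8 with acetaldehyde and 459 in control, a difference of 0.80 ± 0.22 that became -0.50 with scaling on the spikes. It was above 0 at 4 of 4 positions, from 0.51 to 1.00, as for 26.9% of the 774. miR-182-5p had 2313 with acetaldehyde and 2029.6 in control, a difference of 0.19 ± 0.17 that was above 0 at 3 of 4 positions and became -0.99 with scaling on the spikes.

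Of the 3 members, 1 reached 1.5-fold above control with acetaldehyde, as did 7.75% of the 774 microRNAs, and 1 reached 1.5-fold below, as did 8.14%. None reached 2-fold, which 1.03% did upward and 1.81% downward. miR-183-5p passed 2-fold, downward, without normalization (-1.20), with scaling on the 5S probes (-1.04) and with scaling on the spikes (-2.29). The median over all 774 was -0.07. Only 21 of them stood as low as miR-183-5p or lower, and 24 as high as miR-96-5p or higher, itself included in each case. Most of the 774 were dim. Among the 242 that reached a normalized intensity of 500 on either array the central 95% ran from -1.17 to 1.02, which holds all 3 members. miR-96-5p was among the 242 through the acetaldehyde array only, at 799.8 beside 459 in control.

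**Figure D2:**
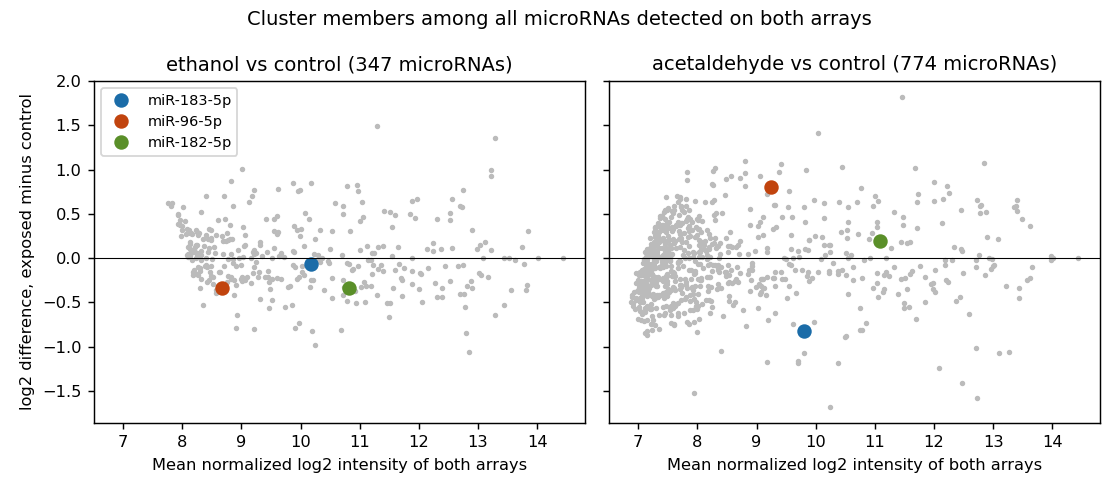
Log2 difference, exposed minus control (y axis), against the mean normalized log2 intensity of both arrays (x axis), for ethanol (347 microRNAs) and acetaldehyde (774 microRNAs). Grey points are all microRNAs detected on both arrays; with acetaldehyde miR-96-5p (0.80) and miR-183-5p (-0.82) lie near opposite edges of the cloud, on values normalized among microRNA probes (miR-96-5p -0.50 with scaling on the spikes).

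With ethanol the differences from control were small. miR-183-5p had 1138 with ethanol and 1189 in control, a difference of -0.06 ± 0.06. miR-96-5p had 362 with ethanol and 459 in control, a difference of -0.34 ± 0.23, and miR-182-5p had 1603 with ethanol and 2029.6 in control, a difference of -0.34 ± 0.09. The last 2 were below 0 at 4 of 4 positions, as were 31.1% of the 347 microRNAs detected on both arrays. None of the 3 members reached 1.5-fold upward, as 8.65% of the 347 did, or downward, as 3.46% did, and the median over all 347 was 0.00. Past 1.5-fold was miR-96-5p without normalization (-0.81) and with scaling on the 5S probes (-0.59).

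The acetaldehyde and ethanol arrays are set side by side here, since neither the compound nor its amount was matched. miR-96-5p had 799.8 with acetaldehyde and 362 with ethanol, 2.21-fold higher with acetaldehyde (1.14 ± 0.04) relative to the other microRNA probes, and 0.048 with scaling on the spikes. Of the 347 microRNAs detected on both, 5 stood as high or higher, itself included, and 2.02% were 2-fold higher or more. miR-182-5p stood at 0.53 ± 0.11, short of the 1.5-fold that 14.7% reached, and at -0.77 with scaling on the spikes. miR-183-5p was 1.69-fold lower (-0.76 ± 0.07), as 17.9% of the 347 were by at least 1.5-fold. Both comparisons of acetaldehyde use the same acetaldehyde array, and both comparisons with control the same control array.

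**Figure D3:**
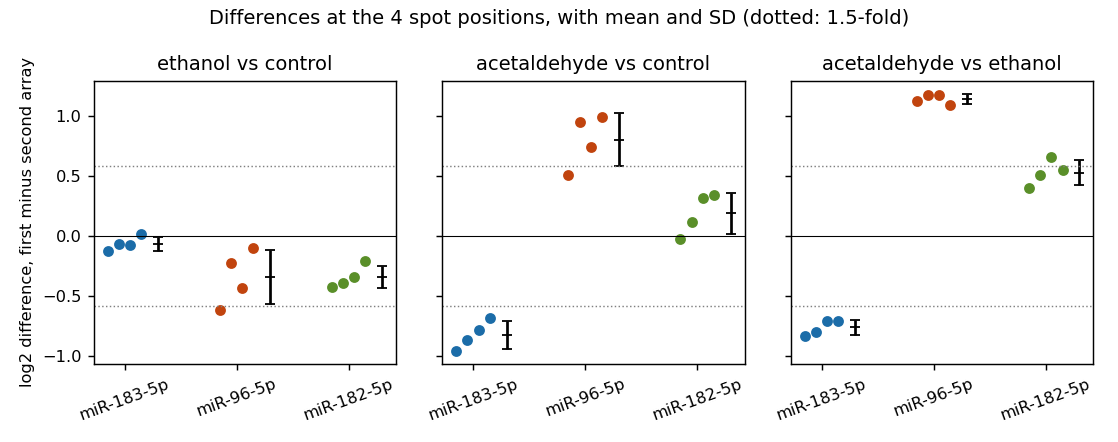
Log2 differences of the members (first minus second array) at each of the 4 spot positions, for ethanol against control, acetaldehyde against control and acetaldehyde against ethanol. Points are positions, bars the mean and SD, dotted lines 1.5-fold. In both panels with acetaldehyde miR-96-5p lies above and miR-183-5p below, on values normalized among microRNA probes. Scaling on the spikes moves all members down in those panels and keeps their spacing before normalization.

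The distance between members within an array does not depend on a constant scaling of that array. With acetaldehyde against control, the difference of miR-96-5p exceeded that of miR-183-5p by 1.62 ± 0.16 (log2), which is 3.08-fold, and by 1.47 to 1.82 at the single positions. The step lay on both sides of miR-182-5p, whose difference exceeded that of miR-183-5p by 1.01 ± 0.07 and fell short of that of miR-96-5p by 0.61 ± 0.17. In the authors' deposited table these distances were 1.44 and 0.40. Without quantile normalization, and so with any constant scaling, the distance of miR-96-5p from miR-183-5p was 1.79. With acetaldehyde against ethanol it was 1.90 ± 0.08, or 3.74-fold.

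With ethanol against control the order turned round and the distances were smaller. The difference of miR-96-5p lay below that of miR-183-5p by a distance of -0.28 ± 0.17, at 4 of 4 positions. The distance of miR-96-5p from miR-182-5p was -0.0022 ± 0.17, above 0 at 2 of 4 positions. It depended on the normalization, at -0.33 without it and with any constant scaling, -0.21 with cyclic loess and -0.39 in the authors' deposited table. The distance of miR-182-5p from miR-183-5p, -0.28 ± 0.04, became 0.017 without normalization.

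The opposite arms of the hairpins were dim. miR-183-3p had deposited spots of 179, 158, 182.8 and 193.4 on the acetaldehyde array and 212, 226, 193.7 and 223 on the control array. Its normalized difference was -0.39 ± 0.18, short of 1.5-fold. That normalized difference lay below 0 at 4 of 4 positions, as for 37.5% of the 774 microRNAs detected on both arrays. Less the empty-spot medians of 65.8 and 105.6, however, its mean was 112.6 with acetaldehyde and 108.1 in control. The lower reading was thus not kept net of background, and no direction is read for this arm. On the ethanol array the spots of miR-183-3p read 149, 147, 189 and 84.8, below the detection level. miR-96-3p and miR-182-3p were detected on none of the 3 arrays, so the 2 hairpins gave a value for 1 arm each. miR-1271-5p, which shares the seed of miR-96-5p and lies on chromosome 5, was detected with acetaldehyde, at a normalized 167.5, and in control, at 147. Its difference was 0.19 ± 0.15. In control its mean was 1.08 times the detection level, so the size of this difference is uncertain. Less the empty-spot medians its means were 133.2 with acetaldehyde and 52.6 in control.

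The members were next set among 18 microRNAs listed for repression of FOXO1 or FOXO3, to which miR-96-5p and miR-182-5p belong. With acetaldehyde 15 were detected on both arrays, with a median difference from control of 0.46, beside -0.07 over all 774 microRNAs. Of the 15, 4 reached 1.5-fold upward and 0 downward. Beside this stand the 7.75% and 8.14% given above, and 16.1% and 10.7% of the 242 that reached 500 on either array. Of the 4, miR-96-5p was among the 242 through the acetaldehyde array only. Besides miR-96-5p the listed ones past 1.5-fold were miR-30d-5p (0.65 ± 0.08), miR-107 (0.63 ± 0.08) and miR-222-3p (0.60 ± 0.04). Without the 2 cluster members the median over 13 was 0.46. With scaling on the spikes 0 of the 774 were 1.5-fold higher, so the direction of the list is again relative to the other microRNAs.

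With ethanol 13 of the list were detected on both arrays, with a median of -0.08, beside 0.00 over all 347. Of these 1 reached 1.5-fold upward, beside 8.65% of all, and 0 downward, beside 3.46%. The 1 was miR-155-5p, an immune and inflammatory microRNA, at 1.01 ± 0.13. miR-27a-3p (-0.34 ± 0.12), described as a FOXO1 repressor beside miR-96 and miR-182 in breast cancer cells, and its paralog miR-27b-3p (-0.44 ± 0.06) stood near the values of those members. With acetaldehyde they stood at 0.57 ± 0.07 and 0.52 ± 0.10, between miR-182-5p and miR-96-5p.

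Markers of epithelium were mixed with acetaldehyde. Relative to the other microRNAs the 7 epithelial microRNAs had a median difference from control of 0.60. Of the 7, 4 reached 1.5-fold upward, beside 7.75% of all and 16.1% of the 242 that reached 500 on either array. These 4 were miR-203a (1.07 ± 0.09), miR-31-5p (1.02 ± 0.10), miR-141-3p (0.71 ± 0.09) and miR-222-3p (0.60 ± 0.04). Of the others miR-221-3p stood at 0.23 and miR-200c-3p, which shares a transcript with miR-141-3p, at -0.12. miR-205-5p stood at 0.00, but quantile normalization gives probes of equal rank the same value. It held the same normalized 22121 on each array, so its 0.00 cannot show whether it changed. With ethanol the median of the 7 epithelial microRNAs was -0.08. Their part in the values of the cluster was not tested.

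The spread among members of other transcripts was read from 27 listed clusters, of which 25 had at least 2 members detected on the acetaldehyde and control arrays. The range from the highest to the lowest member was 1.62 for the miR-183 cluster, the fourth widest, against a median of 0.43 over the other 24. With dark spots left out (spots under 50% of their probe's median) it was the third widest at 1.62. Wider ranges then belonged to the cluster of miR-99a, let-7c and miR-125b (2.58) and that of miR-100, let-7a and miR-125b (1.94), in which the let-7 member was the lowest. Among the 9 clusters with at least 3 detected members it was again number 4, with a median of 1.24 over the other 8, and number 3 with a median of 0.89 when dark spots were left out. Several listed members, such as miR-125b-5p and let-7a-5p, are made from more than one locus, and a cluster with more members has more chance of a wide range. No member of the miR-183 cluster had a dark spot on any of the arrays.

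**Figure D4:**
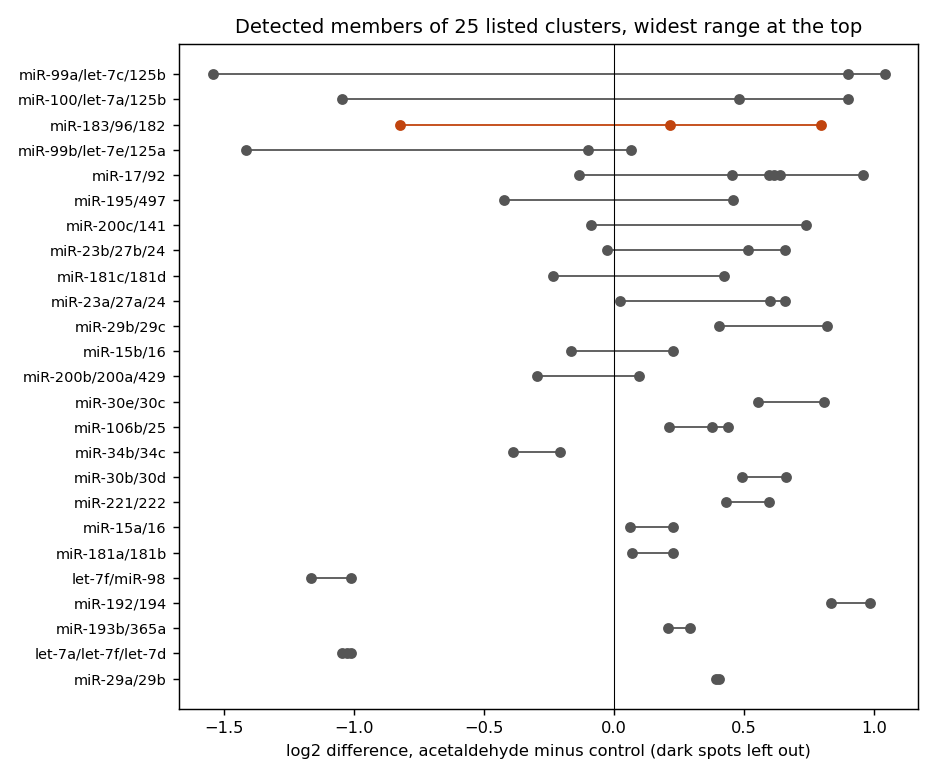
Log2 difference, acetaldehyde minus control, of each detected member (points) of 25 listed clusters, with dark spots left out and a line from the lowest to the highest member, the widest range at the top. The miR-183 cluster spans 1.62, on values normalized among microRNA probes, and only the clusters of miR-99a and miR-100 span more; positions against 0 shift with the scaling.

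With ethanol the range of the miR-183 cluster was 0.28, number 12 of 22 clusters from the widest and close to the median of 0.30 over the other 21. With acetaldehyde against ethanol it was 1.90, number 2 of 22, against a median of 0.58 over the other 21.

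The microRNAs whose pattern over the 3 arrays was nearest to each member were sought among 247. These were detected on all arrays and reached a normalized 500 on at least 1. miR-96-5p passed this filter through the acetaldehyde array only, at 799.8 beside 362 with ethanol and 459 in control. Likeness was measured as the Euclidean distance between log2 values, each microRNA centred on its own mean over the 3 arrays. Nearest to miR-183-5p were miR-320b, miR-320c and miR-320d, at 0.030, 0.032 and 0.046, which have closely related sequences and stood between -0.88 and -0.81 with acetaldehyde against control. Nearest to miR-96-5p were miR-29c-3p, miR-141-3p and miR-20b-5p, at 0.091, 0.15 and 0.15. Nearest to miR-182-5p were miR-34a-5p, miR-331-3p and miR-16-5p, at 0.033, 0.052 and 0.061.

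The cluster members were not near neighbours of each other by this measure. Seen from miR-183-5p, miR-182-5p was number 178 and miR-96-5p number 240 of the 246 others. Seen from miR-96-5p, miR-182-5p was number 52 at a distance of 0.50. With dark spots left out miR-22-3p became the nearest to miR-96-5p, at 0.11, and miR-331-3p the nearest to miR-182-5p, at 0.024, so the order among near neighbours is not firm over 3 arrays.

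Across the 13 alternative settings the separation of the members with acetaldehyde kept its direction. The distance of miR-96-5p from miR-183-5p lay between 1.61 and 1.91 against control and between 1.85 and 2.30 against ethanol. The difference of miR-183-5p from control lay between -2.29 and -0.82 with acetaldehyde and that of miR-96-5p between -0.50 and 0.98, the lowest value of each coming from scaling on the spikes.

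**Figure D5:**
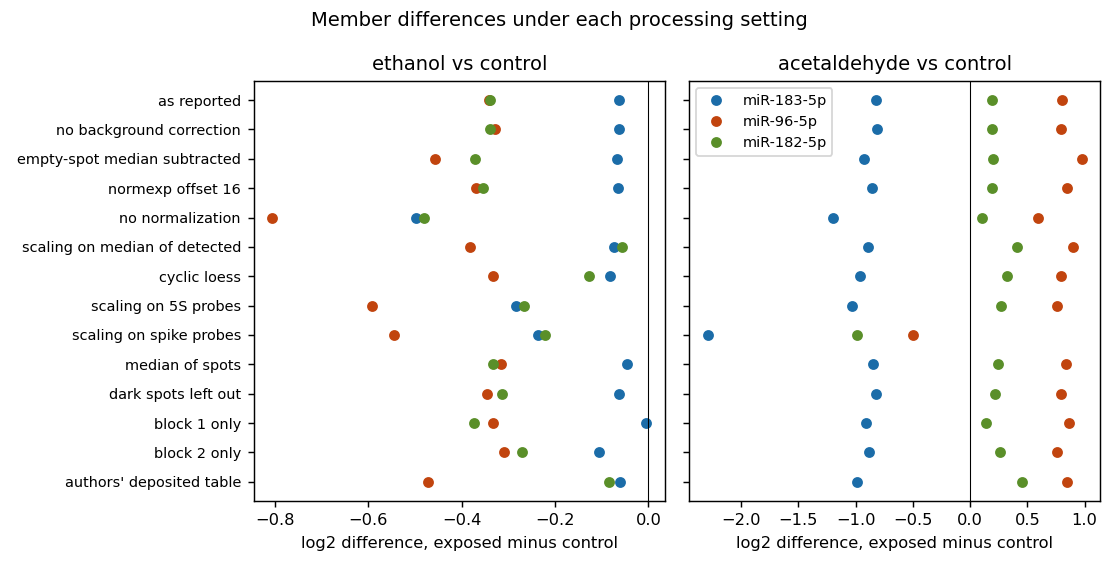
Log2 difference, exposed minus control (x axis), of each member under the reported setting and 13 alternatives (rows), for ethanol and acetaldehyde. With acetaldehyde miR-183-5p lies left and miR-96-5p right in every row; scaling on the spike probes shifts all 3 below 0 (miR-96-5p to -0.50, miR-182-5p to -0.99, miR-183-5p to -2.29).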

How the data were processed

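Each array held Cy5-stained RNA made from 2 µg of total RNA, per the labels' protocols. The deposited array files hold the median intensity of each spot, with no background column. The scanner and image software are not stated there. A deposited table of linear intensity, 1 value per probe and array, had been normalized by the authors in a way the labels do not describe, and served as an alternative only.

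Intensity was background-corrected with normexp (offset 50, fitted on all spots) in limma 3.58.1 under R 4.3.3, taken to log2, averaged over the 4 spots of a probe (2 in each of 2 blocks) and quantile normalized over 2019 microRNA probes. The procedure was also run on simulated arrays that shared the signal level of the control array apart from set changes. That run cannot test differences in scaling between arrays. Later steps ran in Python 3.11.15 with NumPy 2.4.6, pandas 2.3.3 and matplotlib 3.10.9. Log2 differences carry the SD over spot positions, and no test was possible with 1 array per group. Where a probe's median net signal passed 300, a spot under 50% of it was called dark. Differences were described by size (1.5-fold and 2-fold) among probes detected on both arrays. Named were the cluster members, their opposite arms, the microRNA sharing a seed, the 3 nearest patterns per member, and members of the FOXO and cluster lists. The members and lists were chosen with earlier results of these data known. Alternatives changed the background correction, normalization, scaling and spot summary. The number of arrays limits the precision.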

Additional observations from a re-analysis of the deposited data

How the results depend on the processing

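Of 13 alternatives for each member difference and distance, those that moved a value by more than its SD over spot positions are given here (log2). Scaling on the spikes turned 3 differences with acetaldehyde: miR-96-5p to -0.50 and miR-182-5p to -0.99 against control, and miR-182-5p to -0.77 against ethanol. It set miR-183-5p to -2.29 against control and -2.05 against ethanol, miR-96-5p to 0.048 against ethanol, and, with ethanol against control, miR-182-5p to -0.22 and miR-183-5p to -0.24. No normalization gave -0.81, -0.48 and -0.50 for miR-96-5p, miR-182-5p and miR-183-5p with ethanol, and with acetaldehyde -1.20 for miR-183-5p against control and 1.40 for miR-96-5p against ethanol. Scaling on 5S probes gave -0.59 for miR-96-5p and -0.28 for miR-183-5p with ethanol, -1.04 for miR-183-5p with acetaldehyde against control, and 1.35 for miR-96-5p against ethanol. Scaling on the median of detected microRNAs gave -0.057 for miR-182-5p with ethanol and 0.41 with acetaldehyde against control, and 1.28 for miR-96-5p against ethanol. Cyclic loess gave -0.13 for miR-182-5p with ethanol, and -0.96 and -0.88 for miR-183-5p with acetaldehyde against control and ethanol. The authors' deposited table gave -0.084 and 0.45 for miR-182-5p with ethanol and acetaldehyde against control, -0.98 and -0.92 for miR-183-5p with acetaldehyde against control and ethanol, and 1.32 for miR-96-5p against ethanol. With acetaldehyde against ethanol miR-96-5p was 1.43 after subtraction of the empty-spot median, 1.22 with offset 16, 1.20 with block 1 and 1.07 with block 2, and miR-183-5p was -0.86 after that subtraction and -0.91 with block 1.

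With acetaldehyde against control and ethanol the distance of miR-96-5p from miR-183-5p was 1.79 and 2.10 under no normalization and the 3 constant scalings, 1.83 and 2.24 in the authors' deposited table and 1.91 and 2.30 after subtraction of the empty-spot median. Against ethanol it was 2.01 with cyclic loess, 2.01 with offset 16 and 2.11 with block 1. The distance of miR-182-5p from miR-183-5p with acetaldehyde against control was 1.31 under no normalization and the constant scalings, 1.29 with cyclic loess, 1.44 in the authors' deposited table, 1.13 after subtraction of the empty-spot median, 1.10 with the median of spots and 1.15 with block 2. Against ethanol it was 1.46 in the authors' deposited table, 1.43 after that subtraction, 1.38 with the median of spots and 1.42 with block 1. The distance of miR-96-5p from miR-182-5p with acetaldehyde was 0.40 against control in the authors' deposited table, and against ethanol 0.81 under no normalization and the constant scalings, 0.78 in that table and 0.86 after subtraction of the empty-spot median.

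With ethanol against control the distance of miR-182-5p from miR-183-5p turned to 0.017 under no normalization and the constant scalings, and was -0.047 with cyclic loess, -0.022 in the authors' deposited table, -0.37 with block 1 and -0.16 with block 2. That of miR-96-5p from miR-182-5p was -0.33 under no normalization and the constant scalings, -0.21 with cyclic loess and -0.39 in the authors' deposited table, and turned to 0.016 with the median of spots, 0.040 with block 1 and 0.011 without background correction. In all, 148 values stayed within the SD, 76 moved and 10 turned. The cause was not tested.

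Of microRNAs at least 1.5-fold higher and lower, acetaldehyde against control had 60 and 63 as reported, 101 and 46 without normalization, 176 and 28 with 5S scaling, 263 and 22 with median scaling and 0 and 639 with spike scaling. Ethanol against control had 30 and 12 as reported, 5 and 82 without normalization, 23 and 25 with 5S scaling and 31 and 21 with spike scaling. Acetaldehyde against ethanol had 51 and 62 as reported, 71 and 41 without normalization, 0 and 309 with spike scaling and 100 and 109 with no filter on dim probes. No paired analysis was possible because each group had 1 array, and no replicate could be left out.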
